A study of Gallus gallus with 24 samples.

Results

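Peripheral blood mononuclear cells (PBMCs) of chickens were exposed to the T cell mitogen concanavalin A (conA) or to probiotic bacilli, and the responses were compared. The 6 conA libraries were set against the mean of the 6 libraries with Bacillus subtilis DSM 32315 (BS) and the 6 with Bacillus velezensis CECT 5940 (BV), so that 18 of the 24 libraries of the study entered the comparison, and the condition named in the labels chose them. PBMCs came from the blood of 6 chickens, all broilers of the breed Cobb500 aged 4 to 6 weeks, and were cultured for 24 h in medium alone as the control, with 10 µg/ml conA, or with either strain at a ratio of 3 bacteria to 1 PBMC. ConA was the study's positive control for proliferation. Experimental duplicates of each chicken were pooled before RNA isolation, which left 1 library per chicken and condition. The 6 control libraries are given beside the comparison as a reference and are no part of its test. For a few genes, values of bacilli minus control come from a fit of all 24 libraries. The cells are a mixture, so that fewer cells of a type and less RNA per cell cannot be told apart in any result.

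ConA is a plant lectin that binds sugars on surface glycoproteins, the T cell receptor complex among them, and clusters them, which sets off calcium and kinase signalling in T cells. The activated cells then switch on early transcription factors, the growth factor IL-2 and its receptors, and the metabolic machinery for growth. Bacilli instead present lipopeptides, peptidoglycan and nucleic acids to the pattern recognition receptors of monocytes, dendritic cells, heterophils, thrombocytes and B cells. In birds, thrombocytes are nucleated, carry full transcriptomes and stay with the mononuclear cells during density separation.

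Across the 18 libraries, 12170873 to 31242160 reads were counted on genes (median 23825108), 14539 to 16702 genes had at least 1 read, and 17.2% to 31.4% of the reads fell on the top 5 genes. Values below are normalized counts, the reads divided by the size factor of the library, and they compare libraries for 1 gene but not genes of different length. The labels call the cells PBMCs, and markers of T cells were high throughout. The 14 entries of the T cell receptor list (CD3E, CD4, CD8A, LCK and others) summed to 76020 to 88286 normalized counts with conA, 67465 to 88767 with BS and 66908 to 86238 with BV, so that the groups overlapped. Monocyte and macrophage genes (21 entries) summed to 1993 to 7331 with conA, 1984 to 7916 with BS and 2055 to 9059 with BV. Heterophil genes (7 entries) were near the bottom of the scale, with sums of 46.8 to 404 with conA and 42.5 to 696 over BS and BV.

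Of 20266 genes tested, 214 (1.06%) were called higher with conA and 27 (0.133%) lower. A call needed a log2 fold change (log2 FC, conA minus the mean of BS and BV) above 1.5 in either direction and a Benjamini-Hochberg adjusted p under 0.05 in the quasi-likelihood test of edgeR. At the adjusted p alone, with any fold, 943 genes (4.65%) were higher and 207 (1.02%) lower. The higher genes reached a log2 FC of 9.40 (median 2.36), and their median level was 67.9 normalized counts with conA and 10.3 with the bacilli. In 115 of the 214 genes all 6 conA libraries lay above all 12 Bacillus libraries, an order that 335 of all genes tested showed (1.65%). The lower genes reached a log2 FC of -4.36 (median -2.40), and in 2 of the 27 all conA libraries lay below all Bacillus libraries (0.202% of all genes). The number of genes called lower fell when most of the single conA libraries or single chicken numbers were left out. It was 12 to 14 without conA library 2, 3, 4, 5 or 6, 7 without all libraries numbered 2, and 11 to 17 without those numbered 1, 3, 4 or 5. With the chicken number as a block in the fit, 234 genes (1.15%) were called higher and 387 (1.91%) lower, and with DESeq2 the counts were 184 (0.908%) and 144 (0.711%).

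**Figure D1:**
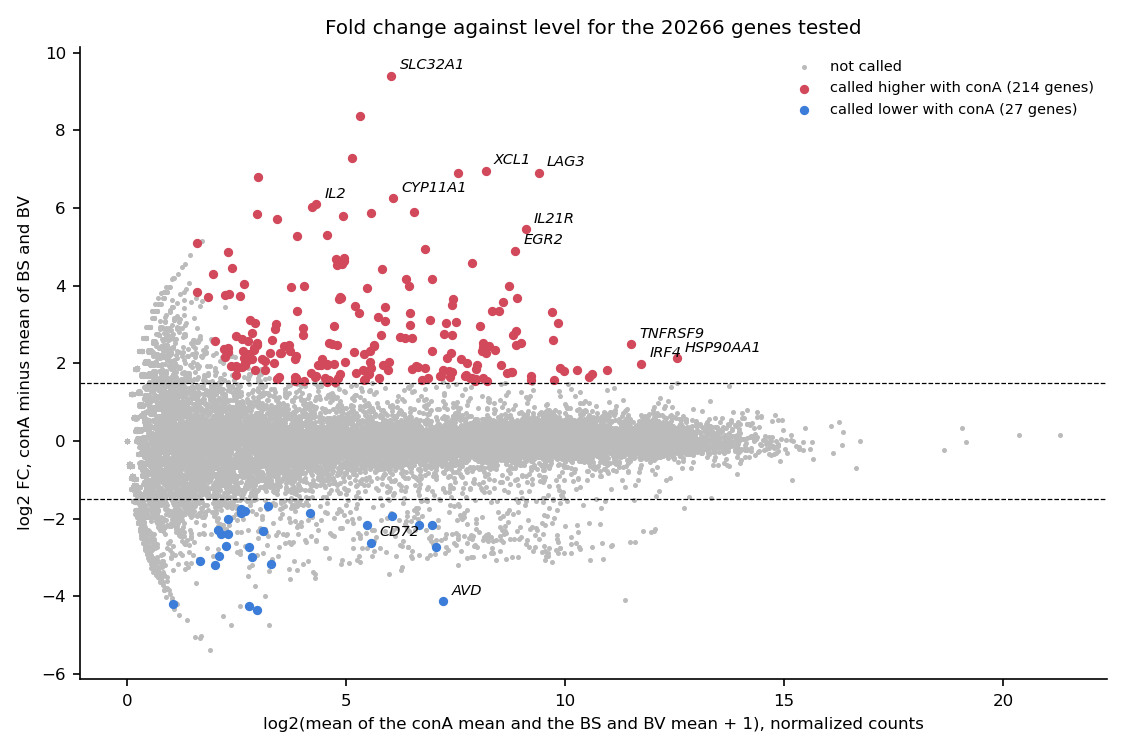
The log2 FC of conA minus the mean of BS and BV (vertical axis) is plotted against the level of each gene (horizontal axis, log2 of the normalized count plus 1) for all 20266 genes tested, with dashed lines at the fold threshold of 1.5. The 214 genes called higher (red) are spread over a wide range of levels, whereas most of the 27 called lower (blue) stand at low levels. Many grey genes with a log2 FC under -1.5 were not called.

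Receptors that T cells put on their surface once activated were among the largest differences. Of 18 genes on this list, 7 were called higher and 0 lower, the median log2 FC was 1.15 against -0.04 over all genes tested, and 10 were higher at the adjusted p alone. With the block 1 member was called lower, CD200R1, an inhibitory receptor named after its values were seen, with 61.0 to 2211 normalized counts with the bacilli and 52.9 to 398 with conA. Its log2 FC was -2.20 ± 0.93 without the block (adjusted p = 0.229), -2.91 without conA library 1, -1.87 with the block (adjusted p = 0.00260) and -2.25 with DESeq2 (adjusted p = 0.0370). LAG3 (ENSGALG00000044449), an inhibitory receptor that binds MHC class II, had 588 to 2009 normalized counts with conA (median 1251) and 2.50 to 34 over the 12 Bacillus libraries (median 8.83). No conA library came near the range of the bacilli, and the log2 FC was 6.91 ± 0.29 (SE, n = 6 and 12 libraries, adjusted p = 4.07e-12). The 12 are a BS and a BV library of each of the 6 chickens that also gave the conA libraries. The fit without the block treats all of these libraries as independent, here and for the genes below. IL21R (ENSGALG00000006318), the receptor of the T cell cytokine IL-21, stood at 685 to 1737 normalized counts with conA and at 9.45 to 37 with the bacilli, a log2 FC of 5.45 ± 0.22. TNFRSF9 (4-1BB) and TNFRSF18 (GITR), costimulatory receptors of the TNF receptor family, were already well expressed with the bacilli. TNFRSF9 had 754 to 1050 normalized counts with the bacilli and 3295 to 7044 with conA, a 5.59-fold higher level. For TNFRSF18 the ranges were 157 to 262 and 785 to 2481, an 8.22-fold higher level, and neither gene's groups overlapped.

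The other 3 called receptors fall outside the 4 that the naming rule takes, and their values had been seen when they were named. CRTAM, which marks activated cytotoxic T cells and natural killer cells, had a log2 FC of 3.67 ± 0.24. IL2RB, the shared signalling chain of the IL-2 and IL-15 receptors, had 1.69 ± 0.23, and IL18R1, the IL-18 receptor chain, had 1.55 ± 0.20. The last pair sat close to the fold threshold. Without conA library 3 their log2 FC were 1.49 and 1.34, without all libraries numbered 3 they were 1.34 and 1.26, and that of IL18R1 was 1.45 without conA library 6 and 1.43 without all libraries numbered 6. IL2RA (CD25), the high-affinity chain of the IL-2 receptor, was expressed at 958 to 1297 normalized counts with conA and 636 to 1284 with the bacilli, with a log2 FC of 0.29 ± 0.12 (adjusted p = 0.204). With the block the log2 FC of IL2RA was 0.32 (adjusted p = 0.0252). In the control IL2RA had 537 to 914 normalized counts.

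Among 15 T cell cytokine genes, 2 were called higher and 0 lower (median log2 FC 0.58). XCL1 (ENSGALG00000015235), lymphotactin, which attracts cross-presenting dendritic cells, had 208 to 1160 normalized counts with conA (median 335) against 0 to 16.2 with the bacilli (median 3.38), and its log2 FC was 6.96 ± 0.43 (adjusted p = 9.20e-12). IL2 itself was present in all 6 conA libraries, at 4.15 to 79.7 normalized counts (median 31.4), and reached at most 2.16 in any Bacillus library, a log2 FC of 6.11 ± 0.77 (adjusted p = 1.55e-05). IFNG, the signature cytokine of T helper 1 cells, had 0 reads in the conA libraries and 7 reads over the 12 Bacillus libraries. The test did not call it (adjusted p = 0.505). IL22, a cytokine that acts on epithelia, stayed at or under 3.16 normalized counts with conA and 6.26 with the bacilli (log2 FC 1.2 ± 1.04, adjusted p = 0.608). A direction was therefore not detectable for either gene at this depth.

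**Figure D2:**
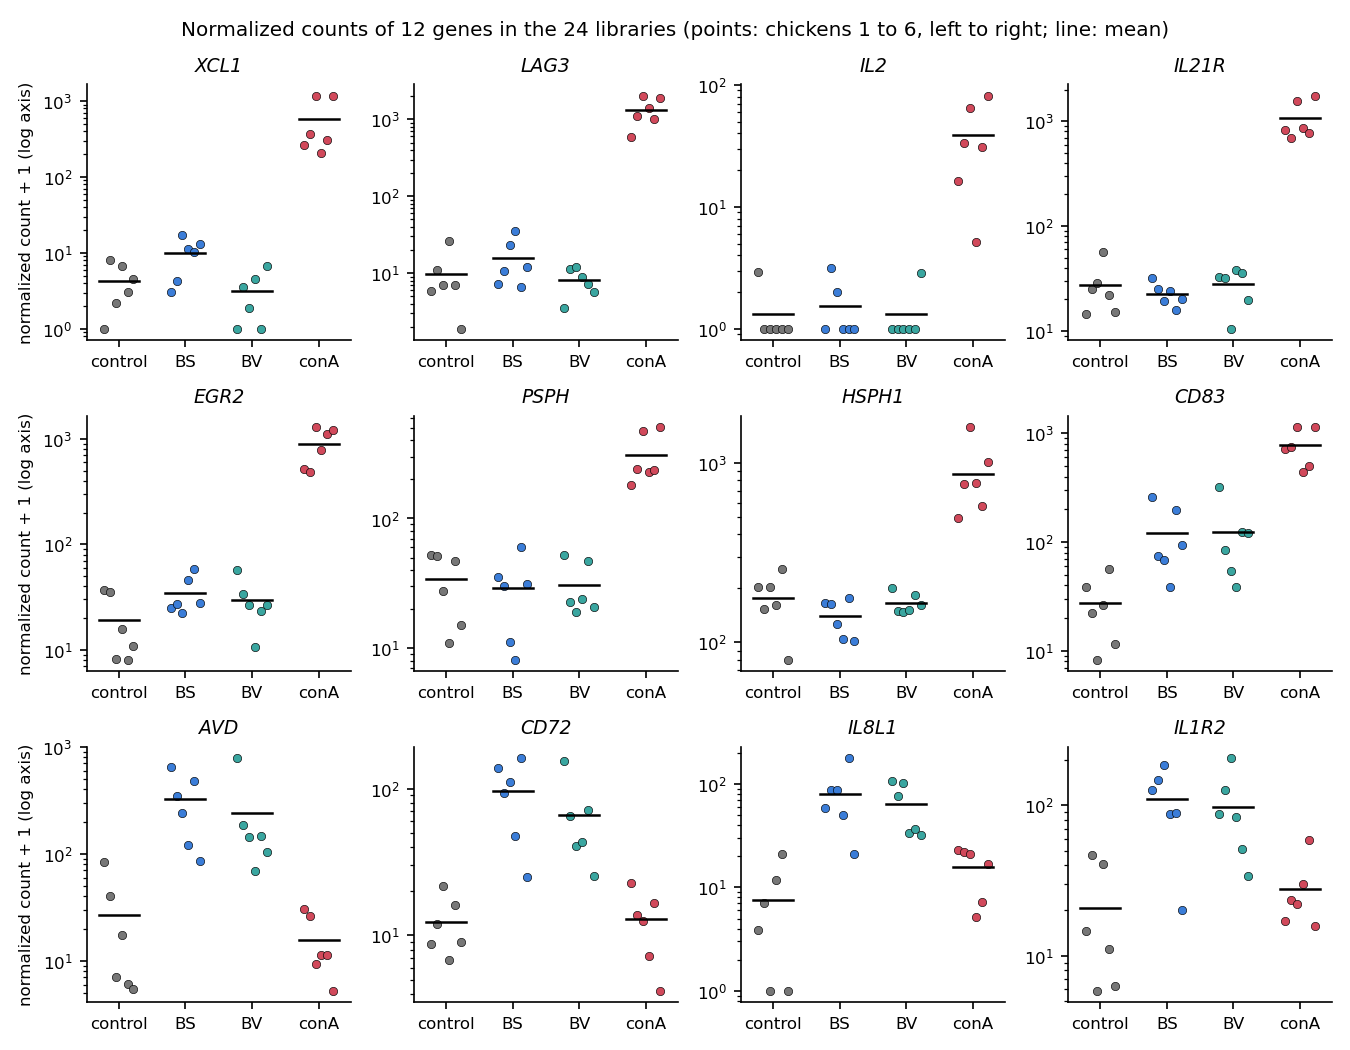
Normalized counts plus 1 (vertical, log axis) of 12 genes in the control, BS, BV and conA libraries, where each point is 1 library, chickens 1 to 6 run from left to right within a group, and the line is the group mean. In the panels of XCL1, LAG3, IL2, IL21R, EGR2, PSPH, HSPH1 and CD83 all 6 conA libraries lie above the 12 Bacillus libraries, whereas AVD and CD72 show the reverse and IL8L1 and IL1R2 a partial overlap.

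Chemokines were split between the treatments. CCL1, a ligand of CCR8 made by activated T cells, had 46.3 to 187 normalized counts with conA and 0 to 4.33 with the bacilli (log2 FC 5.86 ± 0.42, and 5.26 without all libraries numbered 3). CCR8 itself, which is on no list and was named after its values were seen, had 79.8 to 221 with conA and 5.15 to 39.1 with the bacilli (log2 FC 2.98 ± 0.26). CCL17, a chemokine of dendritic cells that attracts CCR4-bearing T cells, had 83 reads over the conA libraries, in 5 of 6 of them, and 0 in every BS, BV and control library. Against the floor of 3 reads over the 12 Bacillus libraries it was at least 54.4-fold higher with conA. It too was named after its values were seen.

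Genes of the early transcription factors and the phosphatases that restrain them kept a clear difference at 24 h. Of 21 entries on this list, 9 were called higher and 0 lower, and the median log2 FC was 0.80. EGR2 (ENSGALG00000040971), which T cells induce through calcium and NFAT signalling, stood at 480 to 1291 normalized counts with conA (median 948) and at 9.69 to 57.3 with the bacilli (median 25.9). Its log2 FC was 4.90 ± 0.25 (adjusted p = 5.63e-11). EGR3, its close relative, had 413 to 1036 with conA and 35.1 to 140 with the bacilli, a 10.2-fold higher level. The orphan nuclear receptor NR4A2, also a calcium-induced gene, had 486 to 1213 with conA and 95.3 to 185 with the bacilli, 5.52-fold higher. DUSP1, a phosphatase that switches off MAP kinases, had 517 to 1317 with conA and 57.2 to 253 with the bacilli, 7.12-fold higher. All conA libraries lay above all Bacillus libraries for each of the 4.

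Further called members of this list were named after their values were seen. DUSP5, an ERK phosphatase, had a log2 FC of 3.99 ± 0.35, and FOSB, a subunit of AP-1, had 2.73 ± 0.46, or 3.40 without all libraries numbered 1. NR4A3 showed 727 to 2457 normalized counts with conA, but 0 to 793 with the bacilli, where chicken 1 alone had 658 with BS and 793 with BV. Its log2 FC of 3.32 ± 0.84 (adjusted p = 0.0275) became 4.52 with the chicken number as a block, 5.26 without all libraries numbered 1, and 1.42 in chickens 1 and 2 against 6.30 in chickens 3 to 6. The call was lost without conA library 3 or 6 (adjusted p = 0.0685 and 0.0676) and without all libraries numbered 2, 3, 4, 5 or 6 (0.0853 to 0.160).

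Of 16 lineage factors, 2 were called higher and 0 lower. IRF4, which scales with the strength of T cell receptor signalling, had 3737 to 7906 normalized counts with conA and 946 to 1852 with the bacilli, with no overlap and a log2 FC of 1.99 ± 0.15 (adjusted p = 1.47e-08). EOMES, a factor of cytotoxic cells, had 40.4 to 251 with conA and 7.51 to 64.7 with the bacilli, and 5 of 6 conA libraries lay above all Bacillus libraries (log2 FC 1.90 ± 0.37). At the adjusted p alone 5 factors were higher and 1 lower, the latter being GATA3, the factor of T helper 2 cells, with a log2 FC of -0.48 (adjusted p = 0.0433) and named after its values were seen. It no longer passed without conA library 1, 2, 3, 4 or 6, or without all libraries numbered 1, 2, 3, 4 or 6 (adjusted p = 0.0757 to 0.183). Among 7 killing genes 0 were called, and 4 had a log2 FC above 0 and 3 below (median 0.09). With the block 3 were higher and 2 lower at the adjusted p alone. GNLY, a granule protein that lyses microbes, came closest with a log2 FC of 0.86 ± 0.20 (adjusted p = 0.0112). GNLY no longer passed without conA library 3 (0.0714) or without all libraries numbered 6 (0.0502). The Fas ligand gene FASLG had 0.74 ± 0.23 (adjusted p = 0.0632). FASLG passed the adjusted p alone with the block (0.72, adjusted p = 0.0200) and with DESeq2 (0.74, adjusted p = 0.0332). With the libraries numbered 3 and 5 left out of the blocked fit it did not (0.42, adjusted p = 0.337).

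Several genes with very large differences have no place on the lists above. SLC32A1, the vesicular transporter of GABA and glycine in neurons, had 23.8 to 403 normalized counts with conA, while 1 read was counted over the 12 Bacillus libraries. The ratio of 753 reads to 1 read, scaled by library size, was 1481 with a 95% exact counting interval of 265 to 58579. Its fitted log2 FC of 9.40 became 8.62 without conA library 6, and its call was lost without all libraries numbered 1 (adjusted p = 0.0649). CYP11A1, the mitochondrial enzyme that starts steroid synthesis from cholesterol, had 73.9 to 265 with conA and 0 to 5.20 with the bacilli (log2 FC 6.26 ± 0.36). BCL2A1, a survival protein of the BCL2 family, had 128 to 336 against 2.02 to 36.4 (log2 FC 4.16 ± 0.27). F8, coagulation factor VIII, had 25.9 to 89.5 against 0 to 5.18, and DIXDC1, a protein of the Wnt pathway, had 51.0 to 172 against 0 to 9.50. For all of these genes the groups did not overlap. TNFAIP2, a gene that NF-kB and retinoic acid induce in other species, was called too (log2 FC 4.69 ± 0.73). It was the single call among 17 genes of the NF-kB list, of which 4 were higher and 0 lower at the adjusted p alone. However, its 6 conA libraries ran from 0 to 149, and conA libraries 4 and 5 lay within the range of the bacilli. Its log2 FC was 4.01 without conA library 3, 3.79 without all libraries numbered 3 and 5.53 without those numbered 5.

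Amino acid supply and protein folding moved together with the activation genes. Of 24 entries for amino acid stress and tRNA synthetases, 6 were called higher and 19 were higher at the adjusted p alone, with 0 lower (median log2 FC 0.65). PSAT1 and PSPH catalyse consecutive steps of serine synthesis. PSPH had 181 to 506 normalized counts with conA and 7.12 to 59.1 with the bacilli (log2 FC 3.50 ± 0.29, adjusted p = 3.13e-08). PSAT1 had 134 to 493 and 24.5 to 80.0 (log2 FC 2.72 ± 0.24). CHAC1, a glutathione-degrading target of ATF4, had 172 to 401 and 7.05 to 82.1 (log2 FC 3.04 ± 0.33), and SLC7A1, a transporter of arginine and lysine, had 91.2 to 285 and 8.71 to 86.8 (log2 FC 1.88 ± 0.28). No conA library overlapped the bacilli in these 4 genes. PYCR1, the last enzyme of proline synthesis, is outside the lists and was named after its values were seen. It had 382 to 859 with conA and 26.1 to 128 with the bacilli (log2 FC 3.34 ± 0.24).

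SLC7A5, the transporter of leucine and other large amino acids, differed between the chicken numbers with the bacilli. In its 12 Bacillus libraries it had 2284 and 2305 normalized counts in chicken 1, 1160 and 1162 in chicken 2, and 227 to 657 in chickens 3 to 6, against 1662 to 4228 with conA. The log2 FC of 1.83 ± 0.45 (adjusted p = 0.0245) lost its call without conA library 3 or 6 (0.0588 and 0.0631) and without all libraries numbered 2, 3, 4, 5 or 6 (0.0665 to 0.136). It was named after its values were seen.

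Of 33 chaperone genes, 2 were called higher and 22 were higher at the adjusted p alone, with 0 lower. HSPH1, a nucleotide exchange factor of the HSP70 system, had 488 to 1578 normalized counts with conA and 101 to 199 with the bacilli (log2 FC 2.52 ± 0.18). HSP90AA1, the inducible cytosolic HSP90, had 5603 to 15203 and 1315 to 3560 (log2 FC 2.14 ± 0.22). In the control HSP90AA1 had 2053 to 5387, so that its mean was higher there than with either strain. Ribosome biogenesis genes shifted in the same direction by less than the fold threshold. Of 30 genes, 0 were called in either direction, 18 were higher at the adjusted p alone, and all 30 had a log2 FC above 0, with a median of 0.43. MYC itself had 3623 to 5254 with conA and 2730 to 4051 with the bacilli (log2 FC 0.45 ± 0.09, adjusted p = 0.00349). NPM1, a nucleolar histone and ribosome chaperone, showed the largest value of the list, with 15113 to 26657 against 6249 to 8518 and a log2 FC of 1.40 ± 0.10 (adjusted p = 5.61e-10).

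Glycolysis and lipid synthesis genes differed by less than the fold threshold. Over all genes tested 4.65% were higher at the adjusted p alone. Of 16 glycolysis genes, 0 were called, 5 were higher and 0 lower at the adjusted p alone, and 12 had a log2 FC above 0. LDHB, a lactate dehydrogenase subunit (log2 FC 1.03 ± 0.12), and ENO1, enolase (0.87 ± 0.10), led them. Of 25 genes of cholesterol and fatty acid synthesis, 0 were called, 4 were higher and 0 lower at the adjusted p alone, and 21 had a log2 FC above 0. Among the 4 were the sterol demethylase CYP51A1 (0.63 ± 0.09) and the fatty acid synthase FASN (0.33 ± 0.06). Of 41 genes of DNA replication and mitosis, 2 were called higher and 7 were higher at the adjusted p alone, with a median log2 FC of 0.20. Both called genes supply deoxynucleotides. RRM2, a subunit of ribonucleotide reductase, had 28.0 to 167 normalized counts with conA and 11.1 to 48 with the bacilli (log2 FC 1.95 ± 0.35). TK1, thymidine kinase, had 2.07 to 94.7 and 5.02 to 32.5, and conA library 4 was the lowest of all 18. Its log2 FC of 1.74 ± 0.42 (adjusted p = 0.0122) lost its call without conA library 3 (0.0533) and without all libraries numbered 3, 5 or 6 (0.0688 to 0.115).

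**Figure D3:**
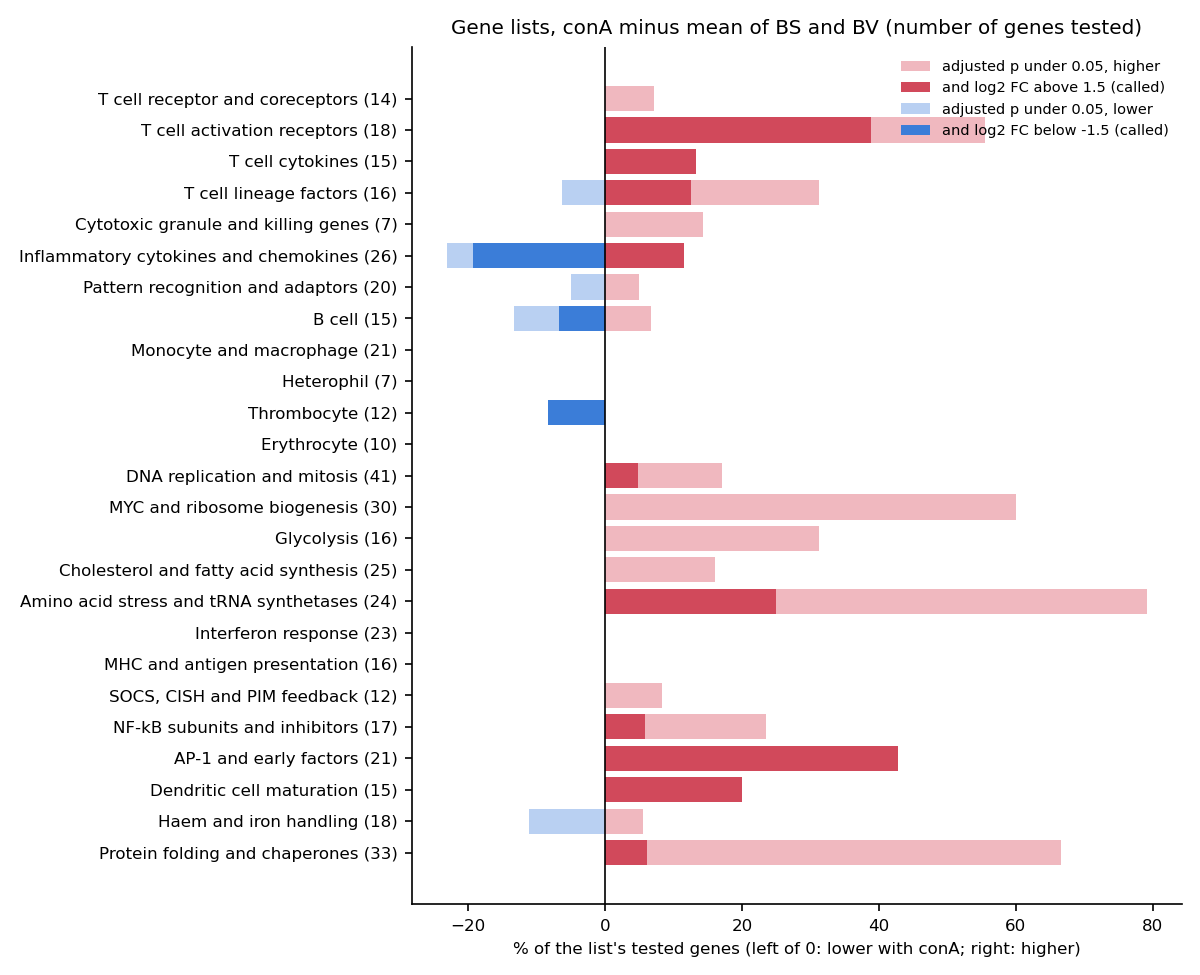
For each of 25 gene lists, with the number of genes tested in brackets, the bars give the percentage of these genes that were higher with conA (right of 0) or lower (left of 0) at the adjusted p alone (pale) and at the fold threshold as well (dark). Amino acid stress (19 of 24), chaperones (22 of 33) and ribosome biogenesis (18 of 30) have the longest pale bars to the right, activation receptors and early factors the longest dark ones, and the inflammatory list has the longest bars to the left.

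Of 15 genes of dendritic cell maturation, 3 were called higher and 0 lower, while 8 had a log2 FC above 0 and 7 below (median 0.05). CD83 and LAMP3 stood lowest in the control, between with the bacilli and highest with conA. CD83, a surface protein of mature dendritic cells and activated lymphocytes, had 7.27 to 55.4 normalized counts in the control, 37.9 to 317 with the bacilli and 440 to 1138 with conA. The log2 FC of conA minus bacilli was 2.73 ± 0.40 (adjusted p = 0.000288), and in a fit of all 24 libraries that of bacilli minus control was 2.15. LAMP3, a lysosomal protein of mature dendritic cells, had 20 to 46.8, 45.8 to 189 and 104 to 644, with a log2 FC of 1.96 ± 0.31 for conA minus bacilli and 1.67 for bacilli minus control. CD86, the CD28 ligand, was scarce, with 88 reads over the conA and 42 over the Bacillus libraries (log2 FC 2.01 ± 0.56, adjusted p = 0.0254). Its call was lost without conA library 2, 3 or 6 and without all libraries numbered 2, 3 or 6 (adjusted p = 0.0600 to 0.204). IL18, an inflammasome-released cytokine on the inflammatory list, had 12.4 to 72.7 in the control, 29.9 to 108 with the bacilli and 272 to 875 with conA, a log2 FC of 2.97 ± 0.25.

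Among the 214 genes higher with conA, the control mean on the log2 scale stood closer to the bacilli than to conA in 209, and in 9 of them the control was more than 1 log2 unit below the bacilli. Among the 27 lower genes, the control stood closer to conA in 9 and was more than 1 log2 unit below the bacilli in the same number. These comparisons share the Bacillus libraries and are descriptions.

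The genes lower with conA included inflammatory genes with a higher mean with the bacilli than in the control. Of 26 entries on the inflammatory list, 5 were called lower and 3 higher, and the median log2 FC was -0.58. With the chicken number as a block 8 were called lower, and DESeq2 without a block also called 8 lower. AVD (ENSGALG00000025945), avidin, a biotin-binding protein that chicken macrophages secrete, had 67.8 to 785 normalized counts with the bacilli (median 167), 4.25 to 29.5 with conA (median 10.4) and 4.44 to 82.4 in the control. All conA libraries lay below all Bacillus libraries, and the log2 FC was -4.12 ± 0.74 (adjusted p = 0.00233). IL8L1 and IL8, a pair of CXC chemokines that attract heterophils and monocytes, had 20.1 to 177 and 44.1 to 290 with the bacilli and 4.15 to 21.9 and 4.25 to 72.5 with conA. In both genes 4 of 6 conA libraries lay below all Bacillus libraries, and the log2 FC were -2.16 ± 0.45 and -2.15 ± 0.45 (adjusted p = 0.00411 and 0.00570). In the control IL8L1 had 0 to 20.1 and IL8 had 9.76 to 87.9. In the edgeR fit of all 24 libraries, bacilli minus control gave a log2 FC of 3.40 for AVD (adjusted p = 0.158). That fit gave 3.32 for IL8L1 (adjusted p = 0.0163) and 1.95 for IL8 (adjusted p = 0.345).

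IL1R2, the decoy receptor of IL-1, overlapped more. It had 19.1 to 205 normalized counts with the bacilli, 14.9 to 58.3 with conA and 4.84 to 46.1 in the control. Bacilli minus control gave 2.33 in the edgeR fit of all 24 libraries (adjusted p = 0.158). The log2 FC of conA minus bacilli was -1.94 ± 0.46 (adjusted p = 0.0131). The call was lost without all libraries numbered 1, 2, 3 or 4 (adjusted p = 0.0553 to 0.0897). EXFABP, a siderophore-binding lipocalin and the remaining called member of the list, had 7.91 to 64.7 with the bacilli and 1.06 to 20.8 with conA (log2 FC -1.85 ± 0.48, adjusted p = 0.0205). Its call was lost without conA library 2, 3 or 6 and without all libraries numbered 1, 2 or 6 (0.0565 to 0.112), its log2 FC was -2.53 without conA library 5, and it was named after its values were seen. IL1B, the inflammatory cytokine itself, had 6.57 to 151 with the bacilli, 1.04 to 47.2 with conA and 0.822 to 21.0 in the control. Its log2 FC of -1.52 ± 0.64 was not called (adjusted p = 0.224). It was called with the chicken number as a block (-1.64, adjusted p = 0.000742) and with DESeq2 without a block (-1.66, adjusted p = 0.0413).

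CD72 (ENSGALG00000005194), an inhibitory lectin of B cells, was called lower, with 24.1 to 161 normalized counts with the bacilli, 3.19 to 21.9 with conA and 5.75 to 20.6 in the control. No conA library overlapped the bacilli, and the log2 FC was -2.62 ± 0.49 (adjusted p = 0.00136). Its reads may be split with those of the related gene CD72AG, since the counting is not described. CD72 was the single edgeR call, in either direction, among 15 entries of the B cell list, of which 11 had a log2 FC below 0 (median -0.66). DESeq2 called 2 of the 15 lower. At the adjusted p alone 2 were lower and 1 higher, and with the chicken number as a block 6 were lower and 1 higher. Summed over that list the conA libraries lay above the bacilli, at 10573 to 14013 normalized counts against 8621 to 9911 with BS and 9193 to 10404 with BV. Most of that sum was BACH2, a repressor that T cells express too, with 7487 to 11533 against 4351 to 6602 and a log2 FC of 0.82 ± 0.11 (adjusted p = 1.29e-05), named after its values were seen.

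Monocyte genes, antigen presentation and the interferon response gave 0 calls in either direction, of 21, 16 and 23 genes, and 0 of them passed the adjusted p alone in edgeR. At an unadjusted p under 0.05 they held 4, 5 and 5 genes, and DESeq2 called 0, 0 and 2 of them, the last pair lower. With the chicken number as a block, 3 monocyte genes were higher and 1 lower at the adjusted p alone, 4 genes of antigen presentation were lower, and 1 interferon gene was higher and 5 lower. FABP4, a lipid-binding protein of macrophages, had a log2 FC of 1.51 (adjusted p = 0.115, and 1.36 with the block, adjusted p = 5.23e-05) and was called without conA library 6 (1.74, adjusted p = 0.0479). Its mean was 284 normalized counts in the control, 214 with conA and 79.2 with the bacilli. TIMD4, a receptor for apoptotic cells, had 1.41 (adjusted p = 0.0698) and was called without conA library 1 or 5 and without all libraries numbered 1 (1.58 to 1.82, adjusted p = 0.0221 to 0.0410). CSF1R, the receptor that marks monocytes and macrophages, had 24.4 to 139 normalized counts with conA and 17.4 to 151 with the bacilli (log2 FC -0.22 ± 0.43, adjusted p = 0.879). CD14, a coreceptor for bacterial products, had 7.26 to 31.6 and 0 to 26.3 (log2 FC 0.90 ± 0.36, adjusted p = 0.183). IRF1, a transcription factor of the interferon response, had 4483 to 5798 with conA and 5371 to 12664 with the bacilli (log2 FC -0.55 ± 0.18, adjusted p = 0.0917, and -0.49 with the block, adjusted p = 0.000127). BLB2, a class II MHC beta chain, had 246 to 782 and 275 to 1915 (log2 FC -1.01 ± 0.41, adjusted p = 0.202, and -0.91 with the block, adjusted p = 0.00394). Of 20 pattern recognition genes 0 were called, with TLR3, a receptor of double-stranded RNA, lower at the adjusted p alone (log2 FC -0.59 ± 0.17) and the adaptor kinase IRAK2 higher (0.49 ± 0.08). TLR3 (adjusted p = 0.0425) no longer passed without conA library 1, 2, 3, 4 or 6. It also failed without all libraries numbered 1, 2, 3, 4 or 6 (adjusted p = 0.0609 to 0.163 over these runs). On the T cell receptor list 0 of 14 entries were called, and 8 had a log2 FC above 0 and 6 below. ZAP70, the kinase docked to the receptor, alone passed the adjusted p, with 4444 to 6573 against 3218 to 4252. Its log2 FC was 0.51 ± 0.09. LCK, next by p, had -0.24 ± 0.08 (adjusted p = 0.103). It had -0.23 with the block (adjusted p = 0.0315) and -0.24 with DESeq2 (adjusted p = 0.0412). With the block 2 entries were higher and 2 lower at the adjusted p alone. On the lists with 0 calls in edgeR that are named above, 6 T cell receptor, 4 killing, 4 pattern recognition, 24 ribosome, 8 glycolysis and 7 lipid synthesis genes had an unadjusted p under 0.05, and DESeq2 called 0 on each.

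Thrombocyte genes differed between chickens by far more than between treatments. The 12 genes of the list summed to 85941 to 93746 normalized counts with the bacilli in chicken 1, and to 2757 to 2927 in chicken 6. With conA the sum ran from 1450 to 18605. ITGA2B, the alpha chain of the platelet fibrinogen receptor, had 299 to 26831 with the bacilli (median 1200) and 196 to 5842 with conA (median 274). F13A1, the clot-stabilising factor XIII, was the single edgeR call without a block. It had 37.2 to 386 against 15.6 to 83.4 and a log2 FC of -2.15 ± 0.56 (adjusted p = 0.0322). That call was lost on leaving out conA library 2, 3, 4, 5 or 6, or all libraries numbered 1, 2, 3, 5 or 6 (adjusted p = 0.0558 to 0.174). DESeq2, also without a block, called 5 of the 12 genes lower.

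The median log2 FC of the 12 thrombocyte genes was -2.23, and with the chicken number as a block 8 of them were called lower. GP9, a subunit of the von Willebrand factor receptor, had a log2 FC of -3.03 ± 1.43 without the block (adjusted p = 0.290) and -3.30 ± 0.20 with it (adjusted p = 2.71e-11). For ITGA2B the values were -2.35 (adjusted p = 0.363) and -2.19 (adjusted p = 0.000536). Without the block the values of GP9 and ITGA2B became -5.22 and -4.17 on leaving out conA library 1, and -3.93 and -3.00 without all libraries numbered 1, with no call. GP9 and ITGA2B were named after their values were seen. With the libraries numbered 3 and 5 left out of the blocked fit, 8 thrombocyte genes were called lower as well. Taken chicken by chicken, conA lay below the mean of BS and BV in 9 to 12 of the 12 genes. On the erythrocyte list edgeR called 0 of 10 genes without the block and 2 with it. They were RHAG, a membrane channel of red cells (blocked log2 FC -2.46), and TAL1, a transcription factor of erythroid cells and thrombocytes (-2.58). In the fit without the block RHAG was called when all libraries numbered 6 were left out (-2.45, adjusted p = 0.0125) and in chickens 1 and 2 only (-3.02, adjusted p = 0.0317). DESeq2 without a block called RHAG too (-2.50, adjusted p = 0.0112). TAL1 was called without the block in chickens 3 to 6 only (-2.10, adjusted p = 0.0312). On the interferon list the block added 2 genes called lower.

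**Figure D4:**
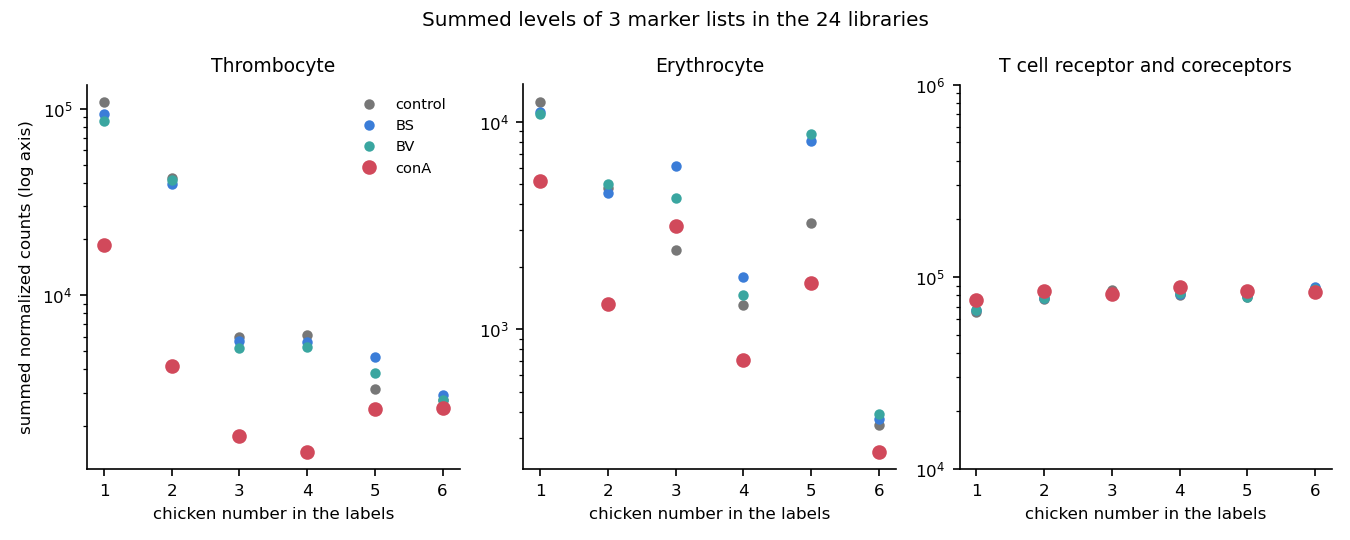
Summed normalized counts (vertical, log axis) of the thrombocyte, erythrocyte and T cell receptor lists by chicken number in the labels, with a point for each control, BS, BV and conA library. In the thrombocyte panel chickens 1 and 2 stand above the others and each conA point lies below the BS and BV points of its number, by least in chicken 6, whereas in the T cell panel all 24 libraries lie between 65894 and 88767.

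Most genes called lower with the block shared the gap between chickens. Of the 387 genes called lower with the block, 359 (92.8%) had control levels over 1 log2 unit higher in chickens 1 and 2 than in chickens 3 to 6, against 13% of all genes tested. All 387 had a log2 FC below 0 without the block too, with a median of -2.43, and 26 of them were called there. The median standard error of these genes was 1.12 without the block and 0.34 with it. A block narrows the error most in genes that differ between chickens, so the 92.8% follows in part from the calling and is a description. The conA numbers 3 and 5 may be crossed between chickens. Without those numbers the blocked fit called 201 genes higher (0.992%) and 430 lower (2.12%), and 360 of the 387 genes were among the latter. Whether the lower levels follow from fewer thrombocytes in the conA cultures was not tested.

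For the genes higher with conA both strains gave much the same picture. Against BS alone 179 genes were called higher (0.883%) and 18 lower (0.0888%), and against BV alone 168 (0.829%) and 10 (0.0493%). Of the 214 genes higher against the mean, 170 were called against BS, 159 against BV and 149 against both. Of the 27 lower genes, 14 were called against BS, 6 against BV and 5 against both. Between the strains themselves 0 genes were called by edgeR, with and without the block, and 0 by DESeq2, which was run without it. In the edgeR fit without the block 192 genes (0.947%) had an unadjusted p under 0.05. For LAG3 the log2 FC was 6.35 against BS and 7.46 against BV, for XCL1 5.98 and 7.93, for AVD -4.34 and -3.90 and for CD72 -2.89 and -2.35. Each pair shares the same conA libraries.

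The library numbers of chickens 1 and 2 (29 to 36) form 1 run, but those of the other chickens do not, since 37 to 48 hold their control, BS and BV samples and 57 to 60 their conA samples. The comparison was therefore repeated within each set. Within chickens 1 and 2, 72 genes (0.355%) were called higher and 69 (0.34%) lower, and within chickens 3 to 6, 216 (1.07%) and 66 (0.326%). Of the 214 genes higher in the full comparison, 213 had a log2 FC above 0 in both sets, and 148 were above 1.5 in both. The median log2 FC of these genes was 2.13 in chickens 1 and 2 and 2.64 in chickens 3 to 6, and the value of chickens 3 to 6 was the larger in 166. All 27 lower genes were below 0 in both sets. Over all 20266 genes tested, 9566 were below 0 in chickens 1 and 2 and 10523 in chickens 3 to 6. The called genes were chosen from these same libraries, so their shared direction follows in part from the calling and is a description. Between the sets, the order of the libraries and the chickens cannot be told apart from each other. Within chickens 3 to 6 the library numbers also separate conA from the bacilli. Library order and treatment therefore cannot be told apart in that set, whose conA libraries are also part of the full comparison.

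A test of the difference between the sets called 45 genes, of which 44 (0.217%) had the higher log2 FC in chickens 3 to 6 and 1 (0.00493%) in chickens 1 and 2. That test holds no term for the single chicken, so the libraries of a chicken count as independent. Its standard errors and adjusted p therefore do not measure the spread between chickens, and the first set holds chickens 1 and 2 alone. In 44 of the 45 the Bacillus level was over 1 log2 unit higher in chickens 1 and 2 than in chickens 3 to 6 (median difference 2.44), while the conA levels differed by a median of 0.47. The test picks genes whose difference between the sets is unlike for the bacilli and conA. The 44 of 45 therefore follows in part from the calling and is a description. For control levels, 13% of all genes tested were that much higher in chickens 1 and 2. NUMB, an adaptor that restrains Notch signalling, had 2231 to 2914 normalized counts with the bacilli in chickens 1 and 2 and 643 to 903 in chickens 3 to 6, but 910 to 1341 over all conA libraries. Its log2 FC was -1.12 in the first set and 0.48 in the second (difference 1.58 ± 0.22, adjusted p = 0.00133). TNFRSF1B, the second TNF receptor, had 478 to 1011 with the bacilli in chickens 1 and 2 and 145 to 199 in chickens 3 to 6, and 566 to 1111 over all conA libraries. Its log2 FC was -0.22 and 2.39 (difference 2.60 ± 0.34, adjusted p = 0.00133). In the full comparison TNFRSF1B was called with the block (log2 FC 1.56, adjusted p = 0.0235) and without all libraries numbered 1 (1.81, adjusted p = 0.00446). Without conA library 2 the test of the difference called 1 gene, and without conA library 3, 5 or 6 it called 21, 22 and 25. NUMB and TNFRSF1B were named after their values were seen.

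**Figure D5:**
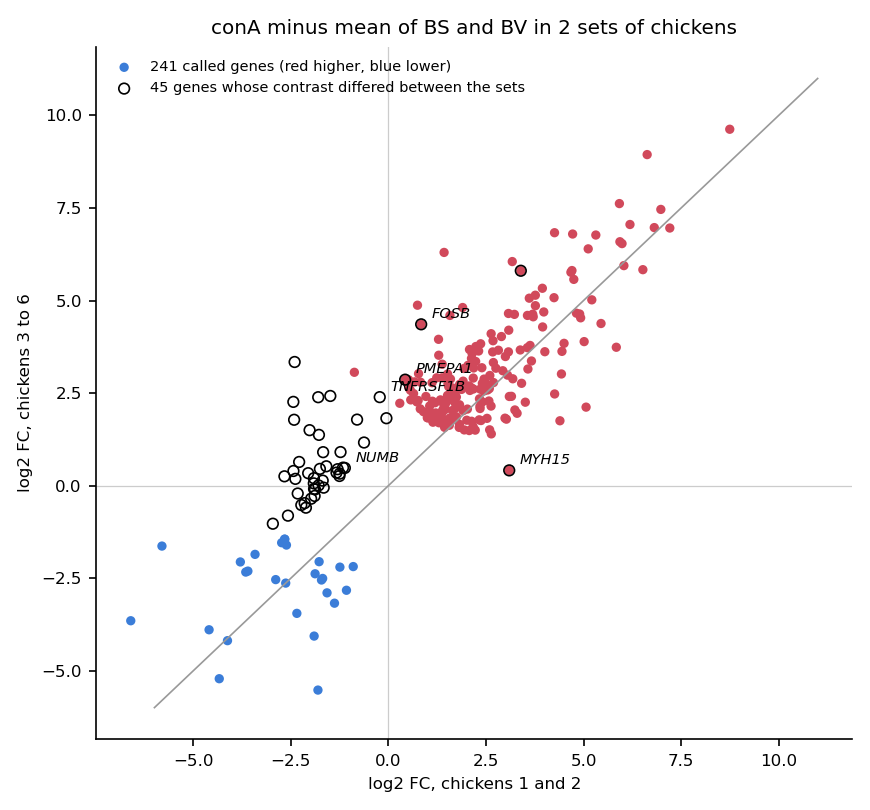
The log2 FC of conA minus the mean of BS and BV in chickens 1 and 2 (horizontal) and in chickens 3 to 6 (vertical) for the 241 called genes (red higher, blue lower) and, as open circles, the 45 genes whose contrast differed between the sets, with a grey line where both are equal. Red points lie mostly above that line (166 of 214), and most open circles lie left of 0 on the horizontal axis.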

How the data were processed

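Total RNA of PBMCs from 6 chickens was sequenced by the authors from both ends with a stranded kit, and the reads were trimmed with Skewer and aligned to GRCg6a with STAR 2.7.3. The tool that assigned reads to genes is not given in the sources used here, nor is its strand setting. The first deposited table holds raw read counts of 23910 genes. The second holds the authors' normalized signal, the counts divided by DESeq2 size factors (DESeq2 1.24.0, per the labels).

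The 20266 genes whose reads summed to 2 or more in the 24 libraries were tested on the counts with edgeR 4.0.16 in R 4.3.3 (glmQLFit, robust, legacy FALSE, TMM) in 1 fit of the 18 conA, BS and BV libraries without a chicken term, as none is stated for the study's DESeq2 step, and p-values were adjusted over all genes tested. DESeq2 1.42.0 and the settings in the closing section served as alternatives. Standard errors were derived from the F statistic. The counting interval and the floor cover counting error only. The edgeR fits with and without the block, the DESeq2 fit and the test between chicken sets were tested on simulated counts. Those counts held no baseline differences between chickens, so they cannot show how the block handles such differences.

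Labels number the chickens 1 to 6 in each group, and the paper colours points by individual. In 13024 genes (mean of 10 or more normalized counts), deviations from the group means correlated at 0.453 or more between same-numbered BS and BV libraries. For conA with BS they gave 0.740, 0.543, -0.02, 0.412, -0.08 and 0.617 for numbers 1 to 6, and conA 5 with BS 3 gave 0.431. The numbers were not exchanged. The members and the 25 gene lists were chosen with earlier results of these data known. Named were the 12 called genes with a symbol and at least 50 normalized counts in either arm that had the largest log2 FC in each direction (6 qualified as lower), up to 4 called members of each list by p or its 2 smallest p, and 11 fixed genes; any other is marked as named after its values were seen. Gene coordinates were not used here, only the order of neighbouring genes in RefSeq.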

Additional observations from a re-analysis of the deposited data

Results flagged for a closer look

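The log2 FC of conA minus the mean of BS and BV differed between chickens 1 and 2 and chickens 3 to 6 in 45 genes (edgeR, adjusted p under 0.05 and a difference above 1.5). Among the named genes the difference, chickens 3 to 6 minus chickens 1 and 2, was 2.60 for TNFRSF1B, 1.58 for NUMB, 3.53 for FOSB, 2.42 for PMEPA1, which dampens TGF-beta signalling, and -2.70 for MYH15, a myosin heavy chain. FOSB, PMEPA1 and MYH15, with the unnamed gene ENSGALG00000001405, are the 4 of these 45 genes that were also called in the full comparison. PMEPA1 had a log2 FC of 0.43 in the first set and 2.86 in the second, and its call (adjusted p = 0.0143) was lost without all libraries numbered 3, 5 or 6 (0.0623 to 0.114). MYH15 had 3.09 and 0.41, and its call (adjusted p = 0.0172) was lost without conA library 1 or 2 (0.0797 and 0.0748) and without all libraries numbered 1 or 2 (0.0940 and 0.162). Both were named after their values were seen.

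Single libraries stood far from the other 5 of their group, by Dixon's test on the log2 scale, in 26 of 276 groups of named genes; chance gives such a result in about 1 of 20. Library BS 5 was high for AvBD1 (113 normalized counts), ENO1 (4789), LDHB (1217) and gga-mir-221 (57.3) and low for IRAK2 (1628), CD14 (0) and gga-mir-222a (0). Library BV 5 was high for ENO1 (5104) and PSAT1 (80.0) and low for TLR3 (136). In chicken 1, IRF1 was high with BS (12144) and BV (12664), and NPM1 was low with BS (6355). In chicken 2, CYP51A1 (1252) and CRTAM (110) were high with BS and MYH15 (5.41) was low. In chicken 4, SLC7A1 was low with BS (8.71) and BV (17.6). In chicken 6, IL1R2 (19.1), F8 (0) and RHAG (0) were low with BS, and AHRR (16) and gga-mir-221 (14.1) with BV. Library conA 4 was low for TK1 (2.07), CD86 (0) and TLR3 (84.0).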

How the results depend on the processing

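Genes called higher kept within 1.5 times of 214 under every alternative run except chickens 1 and 2 only (72), and leaving out replicates gave 174 to 232. These are numbers of calls. The same genes were called in every run that left out replicates for 138 of the 214 higher and 4 of the 27 lower genes. Genes called lower (27) were fewer with filterByExpr (16) and with the conA libraries numbered 3 and 5 left out, a setting chosen after seeing the data (12), and more with DESeq2 (144), chickens 1 and 2 only (69) and chickens 3 to 6 only (66); leaving out replicates gave 7 to 28. With the replicate block they were 387, and 430 without numbers 3 and 5. Against BS alone (197 calls) the block gave 590 and, without numbers 3 and 5, 585, chickens 1 and 2 only gave 70, and leaving out replicates gave 143 to 212. Against BV alone (178 calls) these values were 546, 545, 51 and 122 to 191. BS against BV gave 0 calls in each alternative. The difference between chicken sets (45 calls) gave 138 with DESeq2 and 1 to 57 when single conA libraries were left out. The cause was not tested for any of these. Signs turned for AvBD1 (-1.54 to 0.077 when leaving out replicates), IL22 (-0.029 in chickens 1 and 2 only), NUMB (0.48 in chickens 3 to 6 only and -0.45 to 0.0024 when leaving out replicates) and TNFRSF1B (-0.22 in chickens 1 and 2 only). Of 98 named genes, 57 kept direction and side of the threshold in all alternatives. Low counts limit IFNG, IL22 and CD86.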

Other observations

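MicroRNA host transcripts and ligand-dependent transcription factors, which are on none of the lists, also differed, and were named after their values were seen. The entry gga-mir-155, a microRNA gene that lymphocytes and macrophages switch on during activation, had 28.0 to 63.8 normalized counts with conA, 0 to 2.37 with the bacilli and 0 to 1.77 in the control (log2 FC 5.31 ± 0.39, adjusted p = 5.83e-12). Total RNA libraries count its precursor and not the mature microRNA. The entries gga-mir-221 and gga-mir-222a had 42.5 to 189 and 22.8 to 70.2 with conA and 14.0 to 57.3 and 0 to 19.0 with the bacilli, and each had a log2 FC of 2.03 (adjusted p = 0.000182 and 8.73e-05). AHR, the aryl hydrocarbon receptor, had 845 to 2258 with conA and 285 to 563 with the bacilli (log2 FC 1.88 ± 0.18), and AHRR, its repressor and target, had 131 to 340 and 16 to 64.7 (2.32 ± 0.24). VDR, the vitamin D receptor, had 479 to 887 and 136 to 268 (1.75 ± 0.15). For AHR, AHRR, VDR, gga-mir-155 and gga-mir-222a all 6 conA libraries lay above all 12 Bacillus libraries.

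BCO2, a carotenoid-cleaving enzyme, TEX12, a meiotic gene, and IL18 follow each other in the order of RefSeq genes of assembly GRCg7b, and all were called higher with conA. BCO2 had 14.6 to 138 normalized counts with conA and 0 to 8.71 with the bacilli (log2 FC 4.56 ± 0.44, and 5.19 and 3.94 without all libraries numbered 4 and 6). TEX12 had 1.68 to 29.8 and 0 to 5.54 (log2 FC 2.14 ± 0.62), and without conA library 6 its log2 FC was 1.21. The call of TEX12 was lost without conA library 5 or 6 and without all libraries numbered 2, 3, 5 or 6 (adjusted p = 0.0624 to 0.400). DIXDC1 lies 5 genes beyond IL18, whereas SDHD, PIH1D2 and DLAT between them had log2 FC of 0.10, 0.10 and 0.11. Reads of neighbouring or overlapping genes cannot be told apart without the strand setting of the counting, and their part in these values was not tested.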
